A study of Mus musculus with 8 samples.

Results

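The mouse mitochondrial genome is a small circular DNA whose genes make respiratory chain subunits and the RNAs that translate them. Its transcripts were followed in the epididymal fat pad, a white adipose depot. All genes whose symbol starts with mt- were taken, which gave 37 of the 55487 gene identifiers in the deposited tables: 13 mRNAs, 2 rRNAs and 22 tRNAs. The 8 libraries came from obese male mice of the C57BL/6 strain, made obese by a high-fat diet. The 4 WT mice (numbers 2, 3, 4 and 5) were Slc16a1 flox/flox without Cre. The 4 AKO mice (numbers 3, 8, 9 and 11) were AP2-cre Slc16a1 flox/flox, given as Slc16a1 -/- in the genotype label. Both groups thus carry the floxed alleles, and Cre and the intended deletion go together. AP2-cre uses the promoter of Fabp4 (aP2), a fatty acid binding protein gene of adipocytes that macrophages can also express, so Cre is not limited to adipocytes by design. The sources used here do not give the age of the mice. Slc16a1 encodes the lactate carrier MCT1, and the comparison asks how the fat pad's transcripts differ with its intended loss.

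Both strands of the mitochondrial genome are copied as long RNAs by the polymerase Polrmt with the factor Tfam. The tRNAs lie between most of the other genes and are cut out, which frees the mRNAs and rRNAs. Most of the mRNAs then receive short poly(A) tails. The proteins are core subunits of complexes I, III, IV and V of oxidative phosphorylation, whose other subunits are coded in the nucleus. White fat cells hold fewer mitochondria than brown ones, and their respiratory chain serves lipid synthesis and breakdown.

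The gene sequences of GENCODE M21 (GRCm38) show how tightly these genes are packed, which bears on how reads can be assigned to them. The mRNAs are from 204 bases (mt-Atp8) to 1824 bases (mt-Nd5) long. The reading frames of mt-Atp8 and mt-Atp6, which lie on one RNA, share 43 bases, and those of mt-Nd4l and mt-Nd4 share 7 bases. The shared stretch is shown first, with the start codon of mt-Atp6 in capitals, and then the last 40 bases of mt-Nd4l, with the bases shared with mt-Nd4 in capitals.
mt-Atp8/mt-Atp6: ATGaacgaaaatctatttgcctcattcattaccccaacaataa
mt-Nd4l: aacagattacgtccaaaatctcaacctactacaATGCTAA

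Of the 13 mRNAs, 3 end after the first base of a codon, so that the added poly(A) tail completes the stop codon. Their last 30 bases are shown, with the base of the unfinished codon in capitals. They matter here because the poly(A) tail starts right after these letters.
mt-Co3: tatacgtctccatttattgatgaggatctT
mt-Nd4: gtccaaaactaattacaggcctgacaataT
mt-Cytb: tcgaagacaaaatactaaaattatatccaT

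mt-Nd6 is the 1 mRNA on the opposite strand, where 8 of the 22 tRNAs also lie. The strands differ in base composition, as the first 60 bases of mt-Nd5 and mt-Nd6 show, with G in capitals.
mt-Nd5: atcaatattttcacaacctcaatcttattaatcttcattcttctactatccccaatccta
mt-Nd6: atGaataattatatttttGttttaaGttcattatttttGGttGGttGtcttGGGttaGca
Over the whole gene C made up 27.1% of mt-Nd5 and 6.0% of mt-Nd6, in which G reached 28.1%. The ends of these neighbours share 14 bases on opposite strands.

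A further set of sequences shows why several members are uncertain. A stretch of chromosome 1 carries pseudogenes nearly identical to mitochondrial genes, and the tables list them as separate genes. Compared with the mitochondrial transcripts, 11 nuclear genes had at least 50% of their longest transcript aligned at 95% identity or more. Of these, 7 are on chromosome 1, 3 on chromosome 2 and 1 on chromosome 13. Over 4140 aligned bases the 7 on chromosome 1 differed from the members at 2 positions, and 5 of the 7 had no difference. Counted from the first base of the mitochondrial gene, the differences are A1066T between mt-Co1 and Gm29216 and T3C between mt-Nd3 and Gm28438. They are in capitals in the lines that follow. The last pair shows the 3′ ends of mt-Co2 and Gm28661, with the bases beyond the annotated copy in capitals.
mt-Co1: ggaAttgttttatccaactcatcccttga
Gm29216: ggaTttgttttatccaactcatcccttga
mt-Nd3: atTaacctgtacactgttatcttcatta
Gm28438: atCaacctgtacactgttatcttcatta
mt-Co2: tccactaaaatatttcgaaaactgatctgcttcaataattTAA
Gm28661: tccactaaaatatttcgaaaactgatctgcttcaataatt

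Values are TPM, a level per length of transcript that is scaled to a sum of 1000000 in each library. This unit does not carry the number of reads, so depth is unknown and counting error cannot be given. Errors are SD over 4 mice, and in whole tissue fewer cells of a type and less RNA per cell cannot be told apart. The tissue had adipocyte transcripts, with Adipoq (adiponectin) between 1864 and 5170 TPM. Markers of other tissues rich in mitochondria were low but not absent. The 11 brown and beige fat markers summed to 83.6 to 167 TPM, with Cox8b, a cytochrome oxidase subunit of brown fat and muscle, at 61.1 ± 29.2 in WT and 64.4 ± 20.6 in AKO, while Ucp1, the uncoupling protein of brown fat, reached at most 0.83. The 9 skeletal muscle markers summed to 15.5 to 69.6 TPM, highest in AKO mouse 8, with the actin gene Acta1 at 19.7 ± 10.4 and 32.6 ± 22.0, while Ckm, the muscle creatine kinase, reached at most 0.07. The 6 epididymal markers summed to 0.12, 4.88, 7.57 and 0.06 TPM in WT mice 2, 3, 4 and 5 and to 0 to 0.55 in AKO. These were highest in WT mice 3 and 4, and the part of these tissues in the mitochondrial values was not tested. Slc16a1 itself was 21.3 ± 5.78 TPM in WT and 24.0 ± 2.54 in AKO (SD, n = 4 each), so its total does not check the labels, and the groups are called by their labels.

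The members held between 6.69% and 8.99% of all TPM. WT mice 2, 3, 4 and 5 had shares of 8.37%, 7.54%, 8.99% and 7.55%, while AKO mice 3, 8, 9 and 11 had 7.47%, 7.04%, 6.69% and 8.40%. WT mouse 4 was the highest and AKO mouse 9 the lowest, and the groups overlapped because AKO mouse 11 lay above 3 of the WT mice. The 13 mRNAs made up nearly all of it, from 6.61% to 8.89% of TPM. The 22 tRNAs were listed at 0 in every library, where a 0 may also stand for an estimate that failed, so nothing more is said of them. The remaining 15 members passed the filter used for testing, at least 1 TPM in at least 4 libraries.

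**Figure D1:**
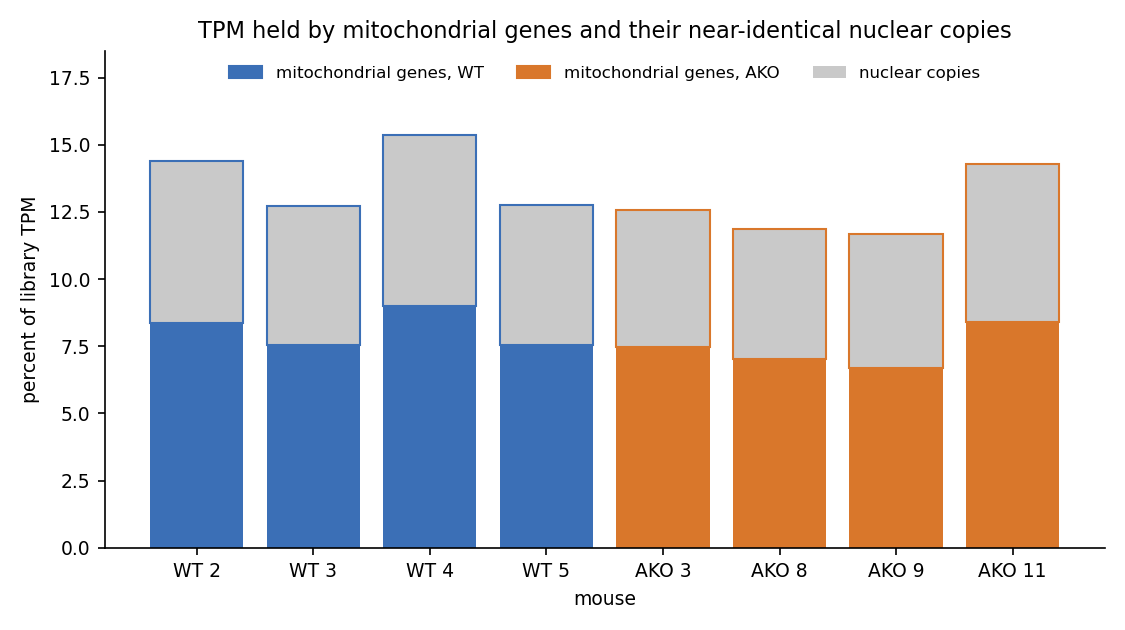
Percent of all TPM per mouse held by the mitochondrial genes and by their near-identical nuclear copies, for 4 WT and 4 AKO mice. The mitochondrial share lies between 6.69% and 8.99%, highest in WT mouse 4 and lowest in AKO mouse 9, and the groups overlap.

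Complex V came first by level. mt-Atp8, a small membrane subunit of the ATP synthase, was the most abundant of all genes in each of the 8 libraries. The WT mice, in the same order, had 33863, 31859.9, 37294 and 32337 TPM, while the AKO mice had 33154, 29580.4, 28063 and 34909. It alone made up 41.0% to 44.7% of the TPM of the 13 mRNAs, and 23.7% to 26.5% when the near-identical nuclear copies were added to their genes. That share is of transcripts per length, and mt-Atp8 is the shortest gene. With TPM multiplied by gene length, a weighting added after seeing the data, mt-Atp8 held 10.3% to 11.9% of the 13 and mt-Co1 came first with 36.2% to 39.4%. mt-Atp6, the proton channel subunit read from the same RNA, was listed far lower, between 536 and 1033 TPM.

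Complex IV, cytochrome c oxidase, has 3 subunits coded here. mt-Co1, the catalytic subunit with heme a, was second of the 13, at 16370, 13976, 17160.1 and 13709.6 TPM in WT and 13729, 13985, 13438 and 16363 in AKO, in the order of the mice above. mt-Co2, which takes electrons from cytochrome c, was last at 242.5, 508, 285 and 74.0 TPM in WT and 244, 351, 324 and 256 in AKO. mt-Co3, the remaining core subunit, was 748.5, 207, 477 and 603 TPM in WT and 642, 695, 468 and 488 in AKO. The levels of mt-Co1 varied little between mice, whereas WT mice 3 and 5 lay at opposite ends for mt-Co2.

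Complex III contributes mt-Cytb, the cytochrome b that handles ubiquinol. It came next after mt-Co1, at 8331, 7333, 9319 and 7763 TPM in WT and 6866, 6017, 5906 and 8486 in AKO. The 2 lowest values were in AKO mice 8 and 9, but AKO mouse 11 lay above 3 WT mice.

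Complex I, NADH dehydrogenase, has 7 subunits here, all in its membrane arm. Averaged over the 8 libraries mt-Nd4 had 4884 ± 721 TPM (SD, n = 8), mt-Nd1 4475 ± 255, mt-Nd2 3931 ± 557, mt-Nd5 2468 ± 235, mt-Nd6 2038 ± 202, mt-Nd4l 1369 ± 299.7 and mt-Nd3 1027 ± 182. mt-Nd4 lay above mt-Nd1, and mt-Nd1 above mt-Nd2, in 7 of 8 libraries each, so these neighbours were close to their spread. mt-Nd1 varied least of the 13 from mouse to mouse, at 4456, 4600.4, 5007 and 4495 TPM in WT and 4272, 4228, 4246 and 4495 in AKO. mt-Nd6, from the opposite strand, stayed at 0.779 to 0.887 of mt-Nd5. The sources used here do not say whether reads were counted by strand, so reads over the overlap of mt-Nd5 and mt-Nd6 cannot be assigned with certainty.

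**Figure D2:**
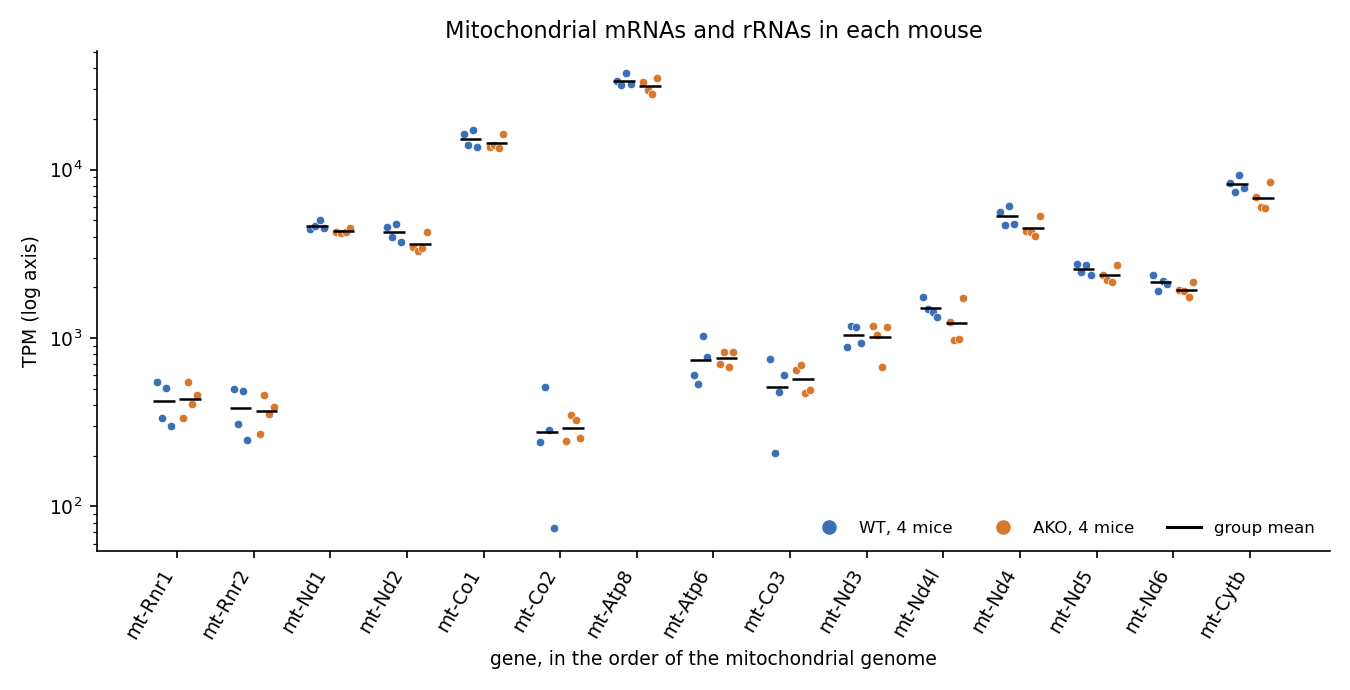
TPM of the 13 mitochondrial mRNAs and 2 rRNAs in each of the 4 WT and 4 AKO mice on a log axis. mt-Atp8 is highest in every mouse, and mt-Co2, mt-Co3 and mt-Atp6 are lowest of the mRNAs and more scattered than mt-Co1 or mt-Nd1.

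The order just given changed when the nuclear copies were counted with their mitochondrial genes. The copies held 4.85% to 6.38% of all TPM, which is 40.6% to 42.7% of members and copies together, and 5 of them were among the 20 genes with the highest mean. Gm28661, the copy of mt-Co2, was listed at 15888, 14058, 16463 and 14856 TPM in WT and 13889, 13678, 13255 and 16120.0 in AKO. mt-Co2 itself held only 0.496% to 3.49% of the pair. The other identical or nearly identical pairs were divided in the same direction. The mitochondrial gene held 2.03% to 7.13% for mt-Co3 (with Gm28437), 5.73% to 9.62% for mt-Atp6 (with Gm10925), 8.50% to 12.2% for mt-Nd4l (with Gm10222) and 11.8% to 19.9% for mt-Nd3 (with Gm28438).

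The copies that cover only part of a gene were divided otherwise. Gm29216 aligns with 31.3% of mt-Co1, and mt-Co1 held 77.7% to 83.5% of that pair. Gm28439 matches 63.6% of mt-Nd4 without a difference and was listed at 0 in all 8 libraries, so mt-Nd4 held everything. The copies on chromosomes 2 and 13 differ at more positions, 16 to 45 per copy, and none exceeded 1.18 TPM. Reads that fall within an identical stretch cannot be told apart by their letters, so the single values of mt-Co2, mt-Co3, mt-Atp6, mt-Nd3 and mt-Nd4l are uncertain. The same limit holds for mt-Co1 and mt-Nd4 over the 31.3% and 63.6% of their length that a copy matches.

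**Figure D3:**
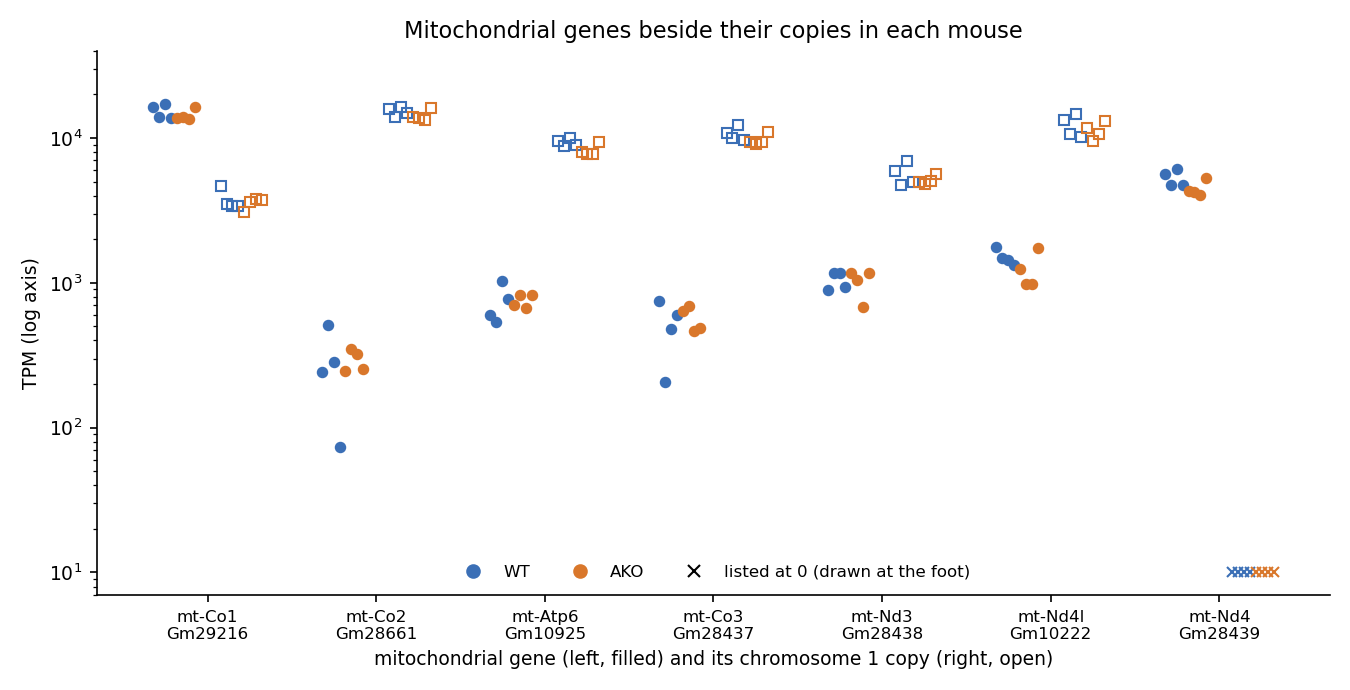
TPM on a log axis of mitochondrial mRNAs and of their near-identical copies on chromosome 1, with a point for each of the 4 WT and 4 AKO mice. The copies of mt-Co2, mt-Co3, mt-Atp6, mt-Nd4l and mt-Nd3 lie above their mitochondrial gene in all 8 mice, and the copy of mt-Co1 lies below it.

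Summed with their copies, mt-Co2, mt-Co3, mt-Atp6, mt-Nd3 and mt-Nd4l moved up and scattered less. The order by mean over 8 libraries became mt-Atp8 (32633 TPM), mt-Co1 (18493), mt-Co2 (15062), mt-Nd4l (13093), mt-Co3 (10764), mt-Atp6 (9517), mt-Cytb (7503), mt-Nd3 (6388) and mt-Nd4 (4884), followed by mt-Nd1, mt-Nd2, mt-Nd5 and mt-Nd6. Each was above the next in 8 of 8 libraries, except mt-Nd4 above mt-Nd1 and mt-Nd1 above mt-Nd2, with 7 each. The coefficient of variation of mt-Co2 over the 8 mice went from 42.8% alone to 7.98% with its copy, that of mt-Co3 from 31.6% to 10.2% and that of mt-Atp6 from 20.7% to 9.63%. The sums thus varied less between mice than the single genes did. mt-Co1 was 27.5 to 185 times mt-Co2 alone and 1.15 to 1.31 times with both copies added. Gm29216 has 492 bases and mt-Co1 1545, and TPM is a level per length. A read listed under this copy thus adds more TPM than a read listed under mt-Co1. The mt-Co1 sum and its ratio to mt-Co2 carry that weighting.

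Ratios of neighbours on shared RNAs moved as well. mt-Atp8 was 35.9 to 59.4 times mt-Atp6, and 3.32 to 3.79 times when Gm10925 was added to mt-Atp6. mt-Nd4l was 0.230 to 0.328 of mt-Nd4, and 2.42 to 2.99 times mt-Nd4 when Gm10222 was added. Each pair is read from 1 RNA, yet neither way of summing gave equal levels. mt-Atp8 and mt-Nd4l are the shortest of the 13, and the sources used here do not say how short transcripts were quantified.

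WT and AKO were compared over the 4 mice of each group. No mitochondrial gene passed the test: with limma on log2(TPM + 1), 0 of the 15 members tested had an FDR below 0.05 (Benjamini-Hochberg over 14172 genes), and 0 had an unadjusted p below 0.05. Over all genes tested 0.0282% passed that FDR (0.0212% higher and 0.00706% lower in AKO) and 4.75% had an unadjusted p below 0.05. The members' FDR lay between 0.831 and 0.987. The groups overlapped for all 15 members, while 2.44% of all genes tested had groups without overlap (1.33% with AKO below and 1.11% with AKO above).

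The total share of the members was 8.11% ± 0.703 in WT and 7.40% ± 0.741 in AKO (SD, n = 4 each), a difference of -0.709 percentage points, about the size of the SD within each group. The difference stayed negative with each mouse left out, but its size and the overlap of the groups changed with single mice. Without AKO mouse 11 the difference was -1.04 points and each AKO mouse lay below each WT mouse, and without WT mouse 4 it was -0.417. Members and copies together were 13.8% ± 1.30 in WT and 12.6% ± 1.19 in AKO, and these groups overlapped too.

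The log2 difference, AKO minus WT, was negative for 10 of the 13 mRNAs and positive for 3, with a median of -0.11. Over all genes tested the median was 0.02, and 46.2% were below 0. mt-Nd4l had -0.32 (SE 0.19, 95% interval -0.75 to 0.12), mt-Cytb -0.27 (SE 0.16), mt-Nd4 -0.24 (SE 0.14) and mt-Nd2 -0.24 (SE 0.13). These are the 4 largest negative differences, but mt-Nd4l had -0.13 (SE 0.18) when summed with its copy Gm10222. In TPM mt-Cytb was 8187 ± 859 in WT and 6819 ± 1191 in AKO. Without AKO mouse 11 these same 4 genes had an unadjusted limma p below 0.05, from 0.00819 to 0.0465, with an FDR of 0.668 for each. In that fit 961 of the 14172 genes tested had an unadjusted p below 0.05. Every other fit, including the 1 over all mice, had 0 such members.

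The 3 positive differences belonged to genes divided with a copy. mt-Co2 had 0.36 (SE 0.50), mt-Co3 0.30 (SE 0.36) and mt-Atp6 0.08 (SE 0.20). Their sign rested on single mice: mt-Co2 was -0.17 without WT mouse 5, and mt-Co3 and mt-Atp6 were -0.08 and -0.06 without WT mouse 3. Summed with their copies mt-Co2, mt-Co3 and mt-Atp6 became -0.10, -0.13 and -0.16. All 13 were then negative, from -0.27 to -0.08 with a median of -0.13, and the smallest FDR was 0.831. The 13 come from the same long RNAs and the same mice, so their shared sign is not 13 separate observations. For the genes alone, WT mouse 4 had the highest value for 7 of the 13 and AKO mouse 9 the lowest for 7. Summed with copies, WT mouse 4 was highest for 10 and AKO mouse 9 lowest for 8.

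**Figure D4:**
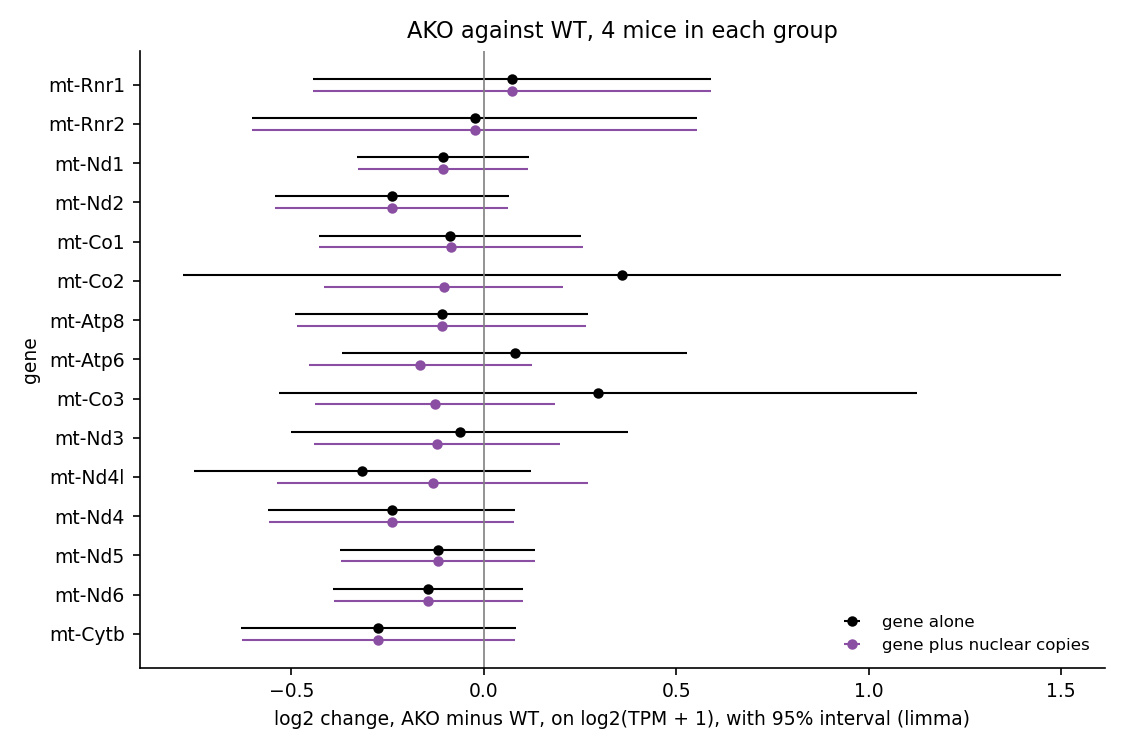
Log2 difference, AKO minus WT, of the 13 mitochondrial mRNAs and 2 rRNAs on the log2(TPM + 1) scale with 95% intervals from limma, for the gene alone and summed with its near-identical copies. The interval of every gene includes 0, and mt-Co2, mt-Co3 and mt-Atp6 move from above to below 0 with their copies.

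The groups also overlapped in the mix of TPM among the 13 mRNAs. Complex I genes made up 26.7% ± 0.555 of the 13 in WT and 25.9% ± 0.409 in AKO, complex IV genes 20.01% ± 0.774 and 20.9% ± 0.909, and complex V genes 43.1% ± 1.03 and 44.0% ± 1.19 (SD, n = 4 each). With the copies added, complex I genes made up 28.6% ± 0.938 and 28.1% ± 0.520, complex IV genes 33.4% ± 0.584 and 34.2% ± 1.14, and complex V genes 32.0% ± 1.03 and 32.3% ± 0.900, so complex IV then came before complex V by mean. Complex IV here includes the full TPM of the part copy Gm29216, and in AKO mouse 3 complex V stayed first (33.5% against 32.7%). mt-Cytb had the widest gap, at 10.2% ± 0.301 and 9.27% ± 0.667, with values of 10.1%, 9.81%, 10.49% and 10.4% in WT and 9.26%, 8.68%, 8.93% and 10.2% in AKO. AKO mouse 11 again lay within WT and the other 3 AKO mice below it. Groups overlapped for the share of each of the 13, whereas the ratio of a gene to the sum of the 13 had groups without overlap for 1.87% of the other genes tested (0.219% with AKO below and 1.65% above). Weighting TPM by gene length separated the groups for mt-Nd4, at 11.6%, 11.1%, 11.8% and 11.2% of the 13 in WT and 10.47%, 10.7%, 10.6% and 11.02% in AKO, and likewise with copies (7.55% ± 0.247 and 7.05% ± 0.196). The ratio to either length-weighted sum had AKO below WT without overlap for 0.177% of the other genes tested. For these sums the opposite direction was not counted, so this is not the share in either direction. Without copies the gap for mt-Nd4 was narrow, from 11.02% in AKO mouse 11 to 11.06% in WT mouse 3.

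The rRNAs are the RNA parts of the mitochondrial ribosome, mt-Rnr1 of the small subunit and mt-Rnr2 of the large one. Here they were scarce beside the mRNAs, at 0.728% to 1.43% of the members' TPM. mt-Rnr1 had 551, 333, 504 and 301 TPM in the WT mice, against 335, 545, 406 and 459.8 in the AKO mice, in the order used above. mt-Rnr2 followed it at 494, 308, 487 and 248 in WT and 269.6, 461, 355 and 391 in AKO. Their ratio stayed between 1.03 and 1.24, and neither passed the test between groups (log2 0.07, SE 0.23, and -0.02, SE 0.25).

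The rRNA level went only in part with other RNAs that lack a poly(A) tail or stay in the nucleus. The 4 libraries highest in rRNA as a percent of all TPM (0.0851% to 0.105%), WT mice 2 and 4 and AKO mice 8 and 11, were also the 4 highest in a list of 8 such RNAs, with mean log2(TPM + 1) of 4.93, 4.58, 5.24 and 5.21 against 3.55 to 4.34 in the others. As a percent of the members' TPM the match was not complete: AKO mouse 9, lowest in that list, was then among the 4 highest at 1.14%, and AKO mouse 11 was not, at 1.01%. The other libraries did not keep the order by percent of all TPM. AKO mouse 9 had 0.0761% rRNA with a list value of 3.55, and AKO mouse 3 had 0.0604% with 4.34. Malat1, a member of the list, was lowest in AKO mouse 11 (47.7 TPM) and highest in AKO mouse 3 (118). Of the 7 list members tested, 7 had positive log2 differences and 0 passed the threshold. Over all genes tested 46.2% had negative differences. Rmrp, the RNA of RNase MRP, was 4.88 ± 2.95 TPM in WT and 15.8 ± 7.05 in AKO, with an FDR of 0.831 by limma. Its AKO values lay above WT without overlap, as for 1.11% of all genes tested. The part of the list's variation in the rRNA values was not tested.

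Nuclear genes that serve the mitochondrial genome were next examined by lists chosen for their roles, and in each list 0 members passed an FDR of 0.05 by limma. Of all genes tested, 46.2% had a negative difference and 4.75% an unadjusted limma p below 0.05. Groups did not overlap for 2.44% of them (1.33% with AKO below and 1.11% above). The genes of a list come from the same mice, so a shared sign is not a set of separate observations. For transcription and replication of mitochondrial DNA, 5 of 21 genes were positive and 16 negative (median -0.07, with 1 at an unadjusted p below 0.05). Tfam, which packages the DNA and starts transcription, was 20.9 ± 2.20 TPM in WT and 21.2 ± 4.85 in AKO. Polrmt was 16.0 ± 3.17 and 17.1 ± 2.78. Twnk, the helicase that opens the DNA for replication, was 6.47 ± 0.305 and 5.48 ± 0.295, and the AKO mice all lay below the WT mice (log2 -0.21, FDR = 0.831 by limma).

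RNA processing, modification and decay had 11 of 34 positive and 23 negative (median -0.05). Fastk, of a family of mitochondrial RNA binding proteins, was 44.1 ± 3.68 TPM in WT and 36.7 ± 4.06 in AKO. Elac2, which cuts the 3′ ends of tRNAs, was 18.2 ± 0.893 and 16.6 ± 0.544. Lrpprc, which keeps mitochondrial mRNAs stable, was 20.1 ± 1.03 and 19.0 ± 1.05. None of these passed.

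Genes for mitochondrial translation were mostly negative by small amounts. Of 30 genes of the ribosome's small subunit 25 were negative (median -0.08), of 48 of the large subunit 40 (median -0.08), of 17 translation factors 14 (median -0.13) and of 19 tRNA synthetases 15 (median -0.09). Mrps23 went the other way, at 80.1 ± 14.8 TPM in WT and 116 ± 13.9 in AKO (log2 0.54, FDR = 0.831 by limma), with each AKO mouse above each WT mouse. Mrps5 was 38.8 ± 5.57 and 30.1 ± 0.555, and Mrpl38 44.8 ± 2.67 and 38.1 ± 1.87, both with AKO below WT. Among the synthetases Yars2, which loads tyrosine, was 13.97 ± 0.483 and 11.7 ± 0.636, also without overlap. Mrps14 and Mrpl10 of the ribosome also had groups that did not overlap, with AKO below WT. Among all genes tested the share without overlap was 1.33% with AKO below and 1.11% above, and 46.2% were negative.

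Other mitochondrial lists were mixed, apart from that of mitochondrial content, which was mostly negative. Regulators of biogenesis had 7 of 13 positive (median 0.03). Nuclear genes for partner subunits of the complexes had 9 of 24 positive and 15 negative (median -0.03), dynamics and mitophagy 5 of 12 positive (median -0.01), and sensing of mitochondrial RNA 4 of 8 (median 0.00). Genes of mitochondrial content outside the respiratory chain had 17 of 20 negative (median -0.11). Among the last, the chaperonin gene Hspd1 was 199 ± 5.50 TPM in WT and 170 ± 13.96 in AKO. Tomm40, of the outer membrane import pore, was 53.9 ± 4.05 and 48.1 ± 2.26. For both, AKO lay below WT without overlap (FDR = 0.831 by limma for each), as for 1.33% of all genes tested. Over all genes tested 46.2% were negative.

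Cell type markers varied from mouse to mouse beside the mitochondrial share. In the order of that share, from WT mouse 4 through AKO mouse 11, WT mouse 2, WT mouse 5, WT mouse 3, AKO mouse 3 and AKO mouse 8 to AKO mouse 9, the summed TPM of 13 macrophage markers was 2337, 3738, 3729, 3593, 5427, 5715, 4639 and 6569. The mouse with the most mitochondrial RNA had the least macrophage RNA, and the mouse with the least had the most. Macrophage markers were positive for 12 of 13 members, and their sum was 2337 to 5427 in WT and 3738 to 6569 in AKO (median log2 0.43). Markers of lipid-associated macrophages, which gather around dying fat cells, were positive for 11 of 12 (median 1.04, with 3 at an unadjusted limma p below 0.05), and summed to 7152 to 14131 TPM in WT and 10694 to 16242 in AKO. Their lowest and highest mice were again WT mouse 4 and AKO mouse 9. Lpl is in both this list and the adipocyte list, so the sum of these markers is not from macrophages alone. Progenitor and fibroblast markers were positive for 9 of 10 (median 0.25), with sums of 1784 to 3022 in WT and 2214 to 3193 in AKO. By comparison, 46.2% of all genes tested had a negative difference and 4.75% an unadjusted limma p below 0.05.

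Red blood cell markers, from cells without mitochondria when mature, summed to 10593, 8300, 7358, 6081, 2847, 4468, 4555 and 2396 TPM in the same order, so they were highest where the mitochondrial share was highest. Of these 5 markers 5 were negative, against 46.2% of all genes tested. Adipocyte markers (15 genes) summed to 54449, 48042, 53120, 43200, 37181, 38585, 51812 and 39937, with 10 negative. In these 5 lists 0 members passed an FDR of 0.05 by limma. The part of cell makeup in the mitochondrial share was not tested.

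**Figure D5:**
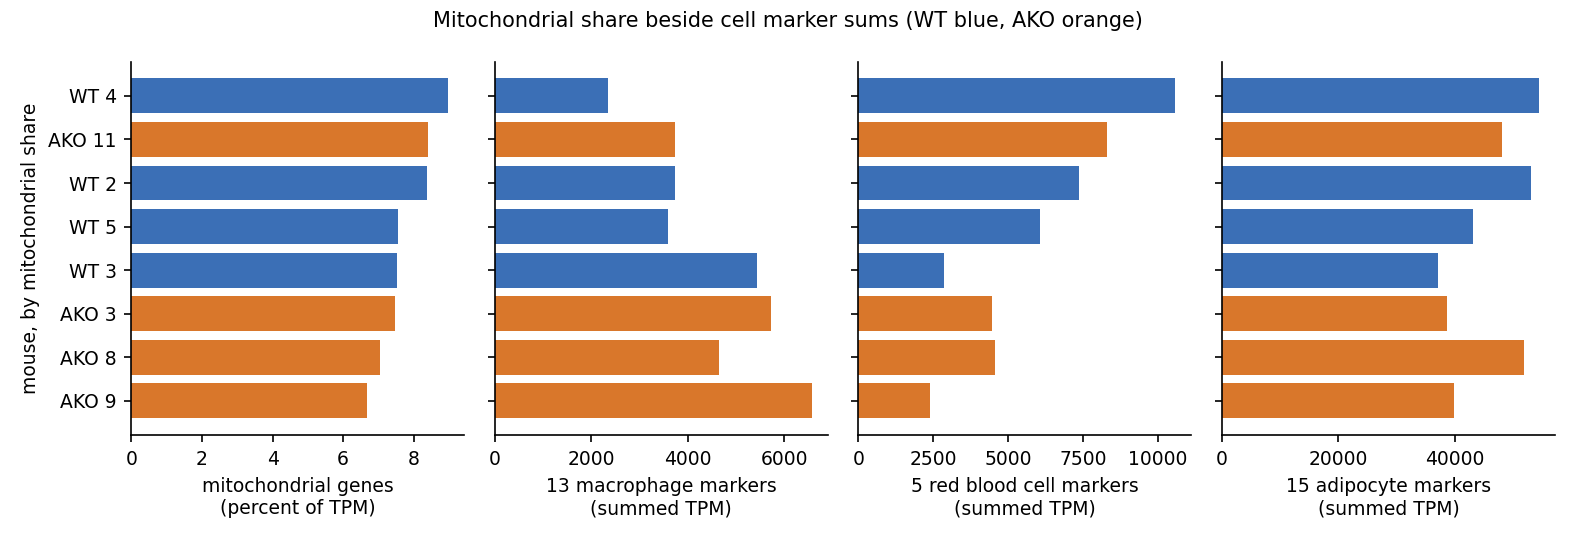
Mitochondrial share of TPM for 4 WT and 4 AKO mice beside the summed TPM of macrophage, red blood cell and adipocyte markers, with a bar per mouse. WT mouse 4 has the highest share (8.99%) and the lowest macrophage sum (2337 TPM), and AKO mouse 9 the lowest share (6.69%) and the highest macrophage sum (6569 TPM).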

How the data were processed

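Per the labels' protocols, frozen fat was extracted with Trizol and sequenced from Illumina TruSeq libraries. The authors deposited 1 table of TPM per library with 152298 rows, several per gene. The submitters' processing notes list HISAT2, DESeq2 and mm9 and no roles. Quantifier and annotation: not given in the sources used here. Rows were summed per gene (mt-Co1 has 2 rows, the other members 1). Symbols were found for 55141 of 55487 identifiers. Another 401 rows that name no gene (0.605% to 0.943% of TPM) stayed in the total and out of the tests.

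The 14172 genes that reached 1 TPM in 4 or more libraries were fitted on log2(TPM + 1) with limma 3.58.1 (R 4.3.3, mean-variance trend). The call threshold was a Benjamini-Hochberg FDR of 0.05. The scale understates changes of low genes. The fit was also run on simulated data. The differences put in there were larger than those of any member, so that run does not cover differences of this size. Transcripts of GENCODE M21 (GRCm38) gave sequences, gene order and chromosome names. No coordinates are given, since the build differs. Nuclear copies were found with blastn 2.17.0 against the mitochondrial transcripts, as no genome was used. Named are the 13 mRNAs, both rRNAs, the 5 copies with the highest mean and, in each list, at most 4 genes of smallest p. A gene this rule would name is not reported here. Gm29216, Gm28439, Tfam, Polrmt, Lrpprc, Slc16a1 and the marker genes fall outside this rule and were named after their values were seen. Members and lists were chosen with earlier results of these data known. The alternatives were another pseudocount, no filter, other scalings, the highest row per gene, sample weights, each mouse left out and, added after seeing the data, values summed with copies or weighted by gene length.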

Additional observations from a re-analysis of the deposited data

Results flagged for a closer look

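In 3 cases 1 mouse stood apart from the other 3 of its group by Dixon's test, among 134 groups of 4 examined, where chance alone gives about 1 in 20. mt-Nd1 was 4494.7 TPM in AKO mouse 11 against 4228 to 4272 in the other AKO mice. Gm28437, the copy of mt-Co3, was 11076.5 TPM in the same mouse against 9052 to 9365. Gm29216, the copy of part of mt-Co1, was 4692.92 TPM in WT mouse 2 against 3389 to 3518 in the other WT mice.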

How the results depend on the processing

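No paired analysis was possible because the groups share only the mouse number 3, which stands for different animals. The median of the 13 mRNAs stayed negative under every alternative run, from -0.16 to -0.07, and no member reached an FDR of 0.05 under any. Of all genes tested, 3 were higher and 1 lower in AKO. A pseudocount of 0.1 gave 5 higher. With each mouse left out, 1 to 3 were higher (1 without WT mouse 2, without AKO mouse 3 and without AKO mouse 11) and 0 to 2 lower (2 without WT mouse 4, 0 without AKO mouse 3). Signs turned for single members. Summed with copies, mt-Co2, mt-Atp6 and mt-Co3 were -0.10, -0.16 and -0.13, and the share of mt-Atp6 in the 13 differed by -0.164 percentage points in place of 0.127. Weighted by gene length, the shares of the 13 kept their direction, and that of mt-Co1 differed by 1.51 points in place of 0.64. With 1 mouse left out, mt-Co2 ranged from -0.173 (without WT mouse 5) to 0.748, mt-Atp6 from -0.0563 and mt-Co3 from -0.0849 (both without WT mouse 3) to 0.259 and 0.53, mt-Nd3 from -0.144 to 0.121 (without AKO mouse 9), mt-Rnr1 from -0.0726 (without WT mouse 5; also negative without WT mouse 3 or AKO mouse 8) to 0.217, and mt-Rnr2 from -0.212 to 0.119 (without AKO mouse 3; also positive without WT mouse 2 or WT mouse 4). The cause was not tested. TPM keeps no depth, so counting error is unknown.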
